A study of Mus musculus with 12 samples.

Results

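Bile acid synthesis and conjugation in the liver was described through 10 genes, Cyp7a1, Cyp8b1, Cyp27a1, Cyp7b1, Hsd3b7, Akr1d1, Acox2, Slc27a5, Baat and Nr0b2. They were taken by symbol from the deposited table of 24411 genes, which holds all 10. The mRNA of whole liver was sequenced from 3 mice of each of 3 genotypes, at 3 months of age and on the C57BL/6 background. Both alleles of Atg7, a gene that autophagy requires, were floxed in all 9 mice. The cont. mice (Atg7 flox/flox) carried no Cre. The Atg7-KO mice carried Alb-Cre, which the albumin promoter drives in hepatocytes. The Atg7-KO;p62T352A mice carried Alb-Cre and, on both alleles of p62 (Sqstm1), a substitution edited into embryonic stem cells, which leaves p62 unable to hold KEAP1, the inhibitor of the transcription factor NRF2. Alb-Cre does not target Kupffer, stellate or endothelial cells, whereas the p62 substitution is present in every cell. A further genotype, the p62T352A mice with intact Atg7, was not analysed here.

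Hepatocytes turn cholesterol into bile acids by 2 routes. CYP7A1 opens the classical route and sets its rate, and CYP8B1 decides how much of the product becomes cholic acid. The alternative route starts with CYP27A1 in mitochondria and continues with CYP7B1. HSD3B7 and then AKR1D1 rebuild the steroid rings for both routes, ACOX2 takes part in shortening the side chain in peroxisomes, and SLC27A5 and BAAT activate the product and join it to taurine or glycine. NR0B2 (SHP) is a corepressor that the bile acid receptor FXR (Nr1h4) induces and that damps Cyp7a1 and Cyp8b1.

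In Atg7-KO livers 6 of the 10 genes fell and 1 rose against cont., and in Atg7-KO;p62T352A livers 5 rose and 2 fell against Atg7-KO. Hsd3b7, Cyp27a1, Slc27a5 and Baat were lower in Atg7-KO than in both other genotypes, whereas Akr1d1 was higher than in both. Cyp7b1 was called lower than in cont. in both genotypes with Alb-Cre. Nr0b2 was highest in Atg7-KO;p62T352A. A gene was called higher or lower at an FDR under 0.05 and a fold change over 1.5, where the FDR is the Benjamini-Hochberg adjusted p of edgeR's quasi-likelihood test over 13922 genes. Many genes passed these thresholds: 43.7% were called in Atg7-KO against cont., of which 21.6% of all tested genes higher and 22.1% lower, and 51.0% in Atg7-KO;p62T352A against Atg7-KO, with 24.7% higher and 26.2% lower. Of the 10 genes 7 were called in each of these comparisons, and their median log2 fold change was -1.18 and then 0.83, beside -0.032 and 0.0021 over all tested genes. In whole liver, fewer hepatocytes and less RNA of a gene in each hepatocyte cannot be told apart.

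Values are normalized CPM, counts scaled to library size by edgeR's TMM method, with the mice of each genotype in the order 1, 2, 3. The TMM factors, by which library size is multiplied, differed by genotype. They were 1.28 to 1.32 in Atg7-KO, 0.7497 to 0.9526 in cont. and 0.8229 to 0.9505 in Atg7-KO;p62T352A. This scaling thus lowered the CPM of Atg7-KO mice relative to the others, and no fit without such factors was run. Library totals ranged from 9671080 to 23285132 counts, and the lowest count of any of the 10 genes in any mouse was 270. Atg7 was 46.4, 44.2 and 55.4 CPM in cont., 10.1, 9.57 and 12.0 CPM in Atg7-KO and 29.7, 27.4 and 29.5 CPM in Atg7-KO;p62T352A. Both genotypes with Alb-Cre were called lower than cont. for Atg7 (log2 fold change -2.20, FDR 2.55e-05, and -0.75, FDR 0.0206), but Atg7-KO;p62T352A was also higher than Atg7-KO (1.45, FDR 0.000164). Counts over the whole gene do not show the deleted exons apart. Sqstm1, by contrast, was higher in Atg7-KO (1.24, FDR 0.00189).

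The mice of a genotype were not alike in 2 respects that touch these genes. First, neither the labels nor the methods for this experiment give the sex of the mice. Xist, transcribed from the inactive X chromosome, was 0.401, 1.35 and 0.643 CPM in the mice numbered 1 and 373 to 2015 CPM in the other 6, and the Y-linked Ddx3y was 46.5 to 70.6 CPM in the mice numbered 1. The library of cont. mouse 2 held both, with 1181 CPM of Xist and 23.6 CPM of Ddx3y. The remaining libraries high in Xist held less Ddx3y, from 0.384 to 8.20 CPM. Second, the clock output gene Dbp was 0.860, 79.8 and 193 CPM in the cont. mice, 1.02 to 4.27 CPM in Atg7-KO and 0.783 to 1.00 CPM in Atg7-KO;p62T352A, and the hour at which livers were taken is not given. Against cont., 10 of 15 clock genes were called lower in Atg7-KO and 1, Dbp, in Atg7-KO;p62T352A, beside 22.1% and 5.34% of all tested genes. The part of sex and hour in the results was not tested beyond the fits named with them.

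**Figure D1:**
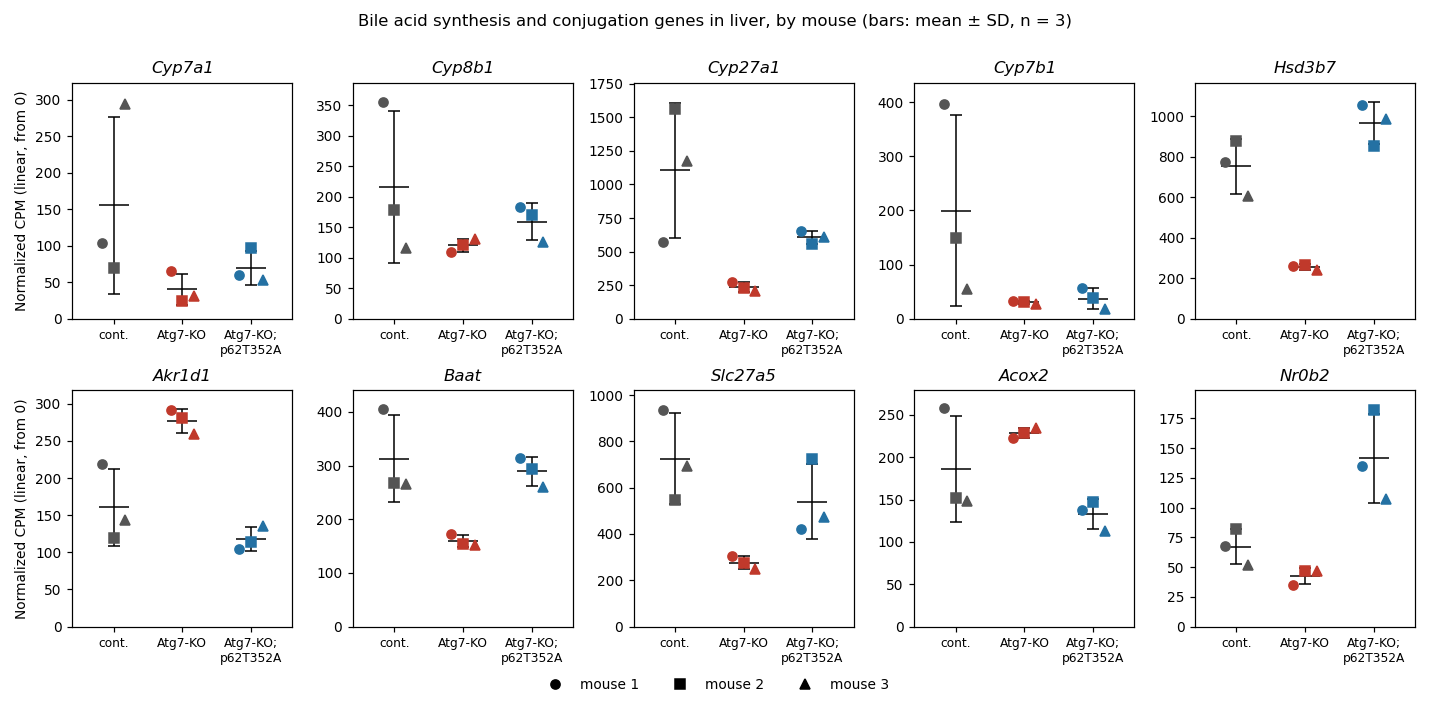
Normalized CPM of the 10 genes in each mouse, on linear axes from 0; each point is 1 mouse, its shape gives the mouse number, and bars give the mean and SD of 3 mice. Hsd3b7 and Baat form 3 tight Atg7-KO points below all other mice, Akr1d1 3 points above them, and the cont. mice spread widely for Cyp7a1, Cyp8b1 and Cyp7b1.

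The stretches of 250 bases before the transcript start are shown for 2 genes that fell in Atg7-KO, Hsd3b7 and Cyp27a1, for Akr1d1, which rose there, and for Nr0b2. They are RefSeq sequences of build GRCm38.p6, 5′ to 3′ on the gene's strand, and capitals mark matches, on either strand, to 1 of 6 motifs. These were the NRF2-bound antioxidant response element core TGACNNNGC, found in 10.2% of 32851 such windows of all genes, the C/EBP motif TTGCNNAA (9.56%), the HNF4A motif CAAAGTCCA (0.384%), the NR5A2 half-site CAAGGTCA (1.33%), the E-box CACGTG (6.02%) and the TATA box TATAAA (12.4%).
Hsd3b7, chr7:127800359-127800608, plus strand: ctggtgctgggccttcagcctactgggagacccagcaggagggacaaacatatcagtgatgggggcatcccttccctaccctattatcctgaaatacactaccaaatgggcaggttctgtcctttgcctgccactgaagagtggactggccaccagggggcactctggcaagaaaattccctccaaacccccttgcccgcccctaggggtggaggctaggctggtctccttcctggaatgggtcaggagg
Cyp27a1, chr1:74713285-74713534, plus strand: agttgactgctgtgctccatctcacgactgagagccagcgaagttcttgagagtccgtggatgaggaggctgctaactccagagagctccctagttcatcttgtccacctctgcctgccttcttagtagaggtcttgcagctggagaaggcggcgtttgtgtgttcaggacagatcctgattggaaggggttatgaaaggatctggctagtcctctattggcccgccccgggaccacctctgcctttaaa
Akr1d1, chr6:37529923-37530172, plus strand: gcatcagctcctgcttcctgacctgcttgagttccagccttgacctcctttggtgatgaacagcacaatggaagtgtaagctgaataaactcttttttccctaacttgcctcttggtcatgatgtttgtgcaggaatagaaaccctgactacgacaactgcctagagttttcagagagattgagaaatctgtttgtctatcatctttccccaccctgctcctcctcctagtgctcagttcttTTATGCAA
Nr0b2, chr4:133553126-133553375, plus strand: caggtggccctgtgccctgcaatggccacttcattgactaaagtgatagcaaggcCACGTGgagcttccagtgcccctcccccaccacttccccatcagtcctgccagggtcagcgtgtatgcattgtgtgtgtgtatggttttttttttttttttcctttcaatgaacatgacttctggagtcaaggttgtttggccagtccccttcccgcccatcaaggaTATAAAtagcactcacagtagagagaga
The windows of Hsd3b7 and Cyp27a1 held none of the 6 motifs. That of Akr1d1 held a C/EBP match at -8 to -1 from the transcript start, and Nr0b2 had an E-box at -195 to -190 and a TATA box at -28 to -23. Acox2 has 2 overlapping windows, not printed because both lie within the span of the gene in GENCODE vM21. An antioxidant response element core, read as GCTGAGTCA, lay at -13 to -5 in one and at -193 to -185 in the other. These are the same bases, counted from 2 transcript starts. The latter window also held a C/EBP match at -146 to -139. In the window of Cyp8b1, not printed, the HNF4A motif lay at -67 to -59, an antioxidant response element core at -151 to -143 and a TATA box at -31 to -26. RefSeq windows matched 6 of the 10 genes, and Cyp7a1, Cyp7b1, Slc27a5 and Baat had no match. A match is a run of letters and not a measured site.

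Cyp7a1 and Cyp8b1, the enzymes particular to the classical route, varied widely among the cont. mice. Cyp7a1 (chromosome 4, 6265612 to 6275633, minus strand; all gene positions are from GENCODE vM21, GRCm38) was 103, 69.3 and 294 CPM in cont., 65.0, 24.4 and 31.4 CPM in Atg7-KO and 59.9, 96.9 and 53.5 CPM in Atg7-KO;p62T352A. Every Atg7-KO mouse was below every cont. mouse, though mouse 1 of the one and mouse 2 of the other lay close together. The gene was 3.87-fold lower in Atg7-KO (log2 fold change -1.95 ± 0.56 SE, FDR 0.0176). Without cont. mouse 3, the highest, the log2 fold change was -1.11 and no longer called (FDR 0.0653), and the call was also lost without Atg7-KO mouse 2 or 3.

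Between Atg7-KO;p62T352A and the other genotypes Cyp7a1 was not called. Its log2 fold change was 0.80 against Atg7-KO (95% interval -0.41 to 2.02, FDR 0.236) and -1.15 against cont. (-2.37 to 0.070, FDR 0.201), and the values overlapped in both.

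Cyp8b1, a gene of a single exon (chromosome 9, 121914356 to 121916305, minus strand), was 356, 179 and 116 CPM in cont., 110, 121 and 131 CPM in Atg7-KO and 183, 170 and 126 CPM in Atg7-KO;p62T352A. Cont. mice 1 and 2 were above all Atg7-KO mice, and cont. mouse 3 was among them. The difference of Atg7-KO from cont. was -0.85 ± 0.36 on the log2 scale (FDR 0.0773) and was not called. DESeq2 called it (-0.89, FDR 0.0453), as did edgeR without cont. mouse 3 (-1.16, FDR 0.0142). Against Atg7-KO the change in Atg7-KO;p62T352A was 0.40 (95% interval -0.39 to 1.20, FDR 0.357).

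In the alternative route both enzymes fell in Atg7-KO. Cyp27a1 (chromosome 1, 74713574 to 74737892, plus strand) was 573, 1564 and 1177 CPM in cont., 274, 226 and 207 CPM in Atg7-KO and 652, 554 and 612 CPM in Atg7-KO;p62T352A. The Atg7-KO mice were below all others, and the Atg7-KO;p62T352A mice lay close to cont. mouse 1 and far below the other two. The gene was 4.68-fold lower in Atg7-KO than in cont. (-2.23 ± 0.33, FDR 0.000717) and 2.57-fold higher in Atg7-KO;p62T352A than in Atg7-KO (1.36 ± 0.33, FDR 0.00645).

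Against cont., Cyp27a1 was not called in Atg7-KO;p62T352A (-0.87 ± 0.32, 95% interval -1.59 to -0.15, FDR 0.112). It was called lower without cont. mouse 1 (-1.18, FDR 0.00365), when the mice numbered 1 of every genotype were left out (-1.23, FDR 0.0113), and by DESeq2 (-0.91, FDR 0.0330).

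Cyp7b1 (chromosome 3, 18071950 to 18243338, minus strand), whose mRNA is known to be higher in male than in female mouse liver, was 396, 148 and 54.2 CPM in cont. and 32.1, 31.7 and 27.6 CPM in Atg7-KO. In Atg7-KO;p62T352A it was 56.1, 38.4 and 17.6 CPM. Ddx3y was 68.2, 23.6 and 6.05 CPM in cont., 46.5, 2.34 and 0.384 CPM in Atg7-KO and 70.6, 8.20 and 2.94 CPM in Atg7-KO;p62T352A. Both genes were highest in mouse 1 and lowest in mouse 3 of each genotype, with a narrow range of Cyp7b1 in Atg7-KO. Baat had the same order in all 3 genotypes, and Cyp8b1 had it in cont. and Atg7-KO;p62T352A, so this order was not particular to Cyp7b1.

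The fall of Cyp7b1 in Atg7-KO was 6.55-fold (-2.71 ± 0.65, FDR 0.00776). It stayed called without cont. mouse 1 (-1.74, FDR 0.00852) and without cont. mouse 2 (-3.01, FDR 0.0136). No rise was called in Atg7-KO;p62T352A against Atg7-KO (0.29, 95% interval -1.08 to 1.66, FDR 0.705). Against cont. it was called lower there (-2.42 ± 0.64, FDR 0.0389), although the highest Atg7-KO;p62T352A mouse was above the lowest cont. mouse, and the call was lost when any 1 of 7 of the 9 mice was left out (FDR 0.0637 to 0.131).

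**Figure D2:**
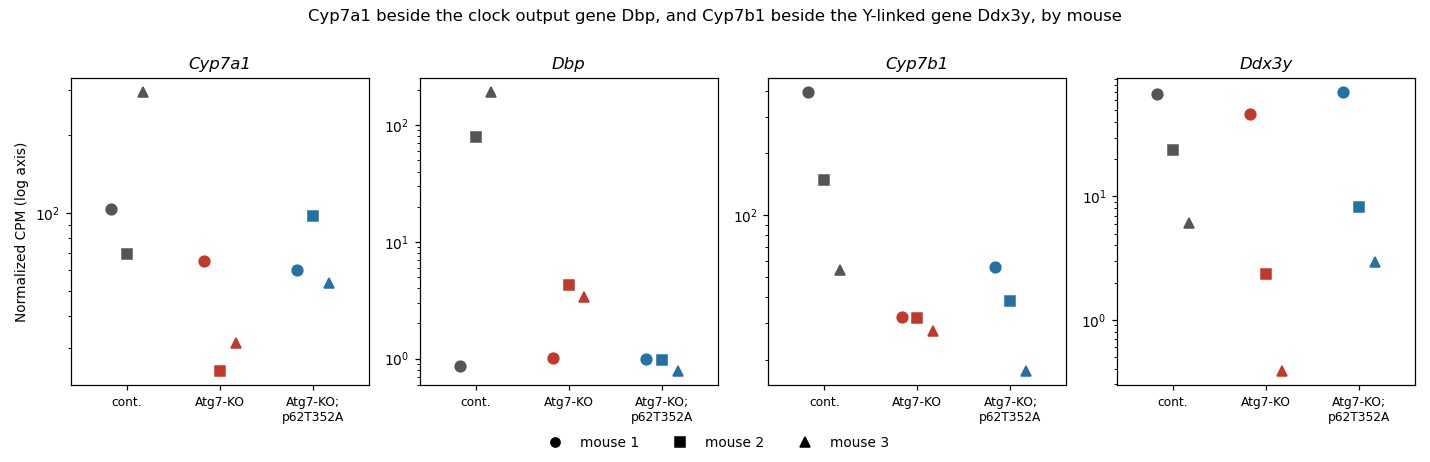
Normalized CPM on log axes of Cyp7a1 and the clock output gene Dbp, and of Cyp7b1 and the Y-linked gene Ddx3y; each point is 1 mouse and its shape the mouse number. Cont. mouse 3 is highest for Cyp7a1 and Dbp, and cont. mouse 1 is highest for Cyp7b1 but lowest of the cont. mice for Dbp. The order of Cyp7a1 and Dbp is otherwise unlike. Of the cont. mice, mouse 2 is lowest for Cyp7a1 and between the others for Dbp. In Atg7-KO, mouse 1 is highest for Cyp7a1 and lowest for Dbp, and in Atg7-KO;p62T352A mouse 3 is lowest for both.

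The consecutive ring enzymes, which both routes share, moved in opposite directions. Hsd3b7 (chromosome 7, 127800604 to 127803802, plus strand) was 776, 878 and 608 CPM in cont., 263, 267 and 239 CPM in Atg7-KO and 1058, 854 and 987 CPM in Atg7-KO;p62T352A. Akr1d1 (chromosome 6, 37530173 to 37568815, plus strand) was 218, 119 and 144 CPM in cont., 291, 281 and 259 CPM in Atg7-KO and 105, 114 and 136 CPM in Atg7-KO;p62T352A. For both genes the Atg7-KO mice lay outside the range of all 6 others, below them for Hsd3b7 and above them for Akr1d1.

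Hsd3b7 was 2.94-fold lower in Atg7-KO than in cont. (-1.56 ± 0.20, FDR 0.000315) and 3.77-fold higher in Atg7-KO;p62T352A than in Atg7-KO (1.91 ± 0.20, FDR 0.000116). Between Atg7-KO;p62T352A and cont. its difference was 0.36 (95% interval -0.081 to 0.80, FDR 0.266). Of the stretches of 75 bases in its transcripts, 46.1% also occur in Gm49388, an overlapping gene on the same strand, and 9430064I24Rik overlaps it on the other strand. Neither has a row in the table, and the library kit named in the labels does not mark strand, so reads of these genes could not be told apart from those of Hsd3b7.

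Relative to cont., Akr1d1 stood 1.73-fold higher in Atg7-KO (0.79 ± 0.23, FDR 0.0209) and 2.35-fold lower in Atg7-KO;p62T352A than in Atg7-KO (-1.23 ± 0.24, FDR 0.00214). The rise against cont. was not called without cont. mouse 2 (0.52, FDR 0.139) or cont. mouse 3 (0.71, FDR 0.0640), nor without Atg7-KO mouse 1 or 2. The fall kept its call with each mouse left out. Within single libraries, where no scaling enters, the ratio of Hsd3b7 to Akr1d1 counts was 3.56, 7.36 and 4.23 in cont., 0.904, 0.950 and 0.924 in Atg7-KO and 10.1, 7.50 and 7.27 in Atg7-KO;p62T352A. The ratio was thus below 1 in the Atg7-KO mice and above it in the other 6, and is given with no test because the pair was chosen after its values were seen.

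Acox2 (chromosome 14, 8225511 to 8259353, minus strand) was 258, 152 and 148 CPM in cont., 223, 229 and 234 CPM in Atg7-KO and 138, 148 and 113 CPM in Atg7-KO;p62T352A. Cont. mouse 1 was above the narrow range of Atg7-KO and the other 2 cont. mice below it. Acox2 was not called between Atg7-KO and cont. (0.30 ± 0.23, FDR 0.327), but without cont. mouse 1 it was called higher (0.60, FDR 0.00663). It was 1.72-fold lower in Atg7-KO;p62T352A than in Atg7-KO (-0.78 ± 0.24, FDR 0.0187), a call lost without Atg7-KO mouse 2 or 3 or Atg7-KO;p62T352A mouse 3 (FDR 0.0542 to 0.0746). Acox2 and Akr1d1 were the members called lower in this comparison.

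The 2 conjugation enzymes moved alike. Slc27a5 (chromosome 7, 12988346 to 12998192, minus strand), which activates bile acids with coenzyme A, was 937, 546 and 694 CPM in cont., 306, 273 and 248 CPM in Atg7-KO and 422, 723 and 475 CPM in Atg7-KO;p62T352A. Baat (chromosome 4, 49489422 to 49506557, minus strand), which transfers them to taurine or glycine, was 406, 268 and 265 CPM in cont., 172, 154 and 153 CPM in Atg7-KO and 315, 294 and 261 CPM in Atg7-KO;p62T352A. All Atg7-KO mice were below all other mice for both genes.

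Slc27a5 was 2.63-fold lower in Atg7-KO than in cont. (-1.40 ± 0.27, FDR 0.00285) and 1.96-fold higher in Atg7-KO;p62T352A than in Atg7-KO (0.97 ± 0.27, FDR 0.0132), and this second call was lost without Atg7-KO mouse 3 (0.90, FDR 0.0565). Baat was 1.96-fold lower in Atg7-KO (-0.97 ± 0.21, FDR 0.00457) and rose by 0.86 ± 0.21 on the log2 scale in Atg7-KO;p62T352A (FDR 0.00679). Neither was called between Atg7-KO;p62T352A and cont. The difference was -0.43 for Slc27a5 (95% interval -1.02 to 0.17, FDR 0.330) and -0.11 for Baat (-0.57 to 0.35, FDR 0.767).

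Nr0b2 (chromosome 4, 133553376 to 133556536, plus strand) was 68.1, 81.7 and 51.9 CPM in cont., 34.6, 46.4 and 46.8 CPM in Atg7-KO and 135, 182 and 108 CPM in Atg7-KO;p62T352A. The 3 genotypes did not overlap, with Atg7-KO lowest and Atg7-KO;p62T352A highest. The rise over Atg7-KO was 3.32-fold (1.73 ± 0.25, FDR 0.000513) and kept its call with each mouse left out. Against cont. it was 2.10-fold (1.07 ± 0.25, FDR 0.0256), and this call was lost when any 1 of 6 of the 9 mice was left out (FDR 0.0533 to 0.0706). The lower level in Atg7-KO than in cont. was not called (-0.66 ± 0.25, FDR 0.0529), whereas DESeq2 called it (-0.68, FDR 0.0274).

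Between Atg7-KO;p62T352A and cont., 2 of the 10 genes were called, Nr0b2 higher and Cyp7b1 lower. Over all tested genes 11.6% were called here, 6.25% higher and 5.34% lower, and the members' median log2 fold change was -0.44 beside 0.0044 over all. The number called fell to 0 when cont. mouse 2, Atg7-KO mouse 2 or 3, or Atg7-KO;p62T352A mouse 1 or 2 was left out. It fell to 1 without cont. mouse 3, Atg7-KO mouse 1 or Atg7-KO;p62T352A mouse 3, and it was 3 without cont. mouse 1. Calls over all genes moved too, from 1613 of 13922 with all mice. They were 750 to 972 in the fits with 0 members called. In the fits with 1 member they were 1620, 781 and 435, and without cont. mouse 1 they were 3245. Each fit with a mouse left out tested 14103 to 14207 genes. The changes in number are thus not particular to the members. This comparison shares its mice with the other two, so the 3 sets of values are not independent.

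**Figure D3:**
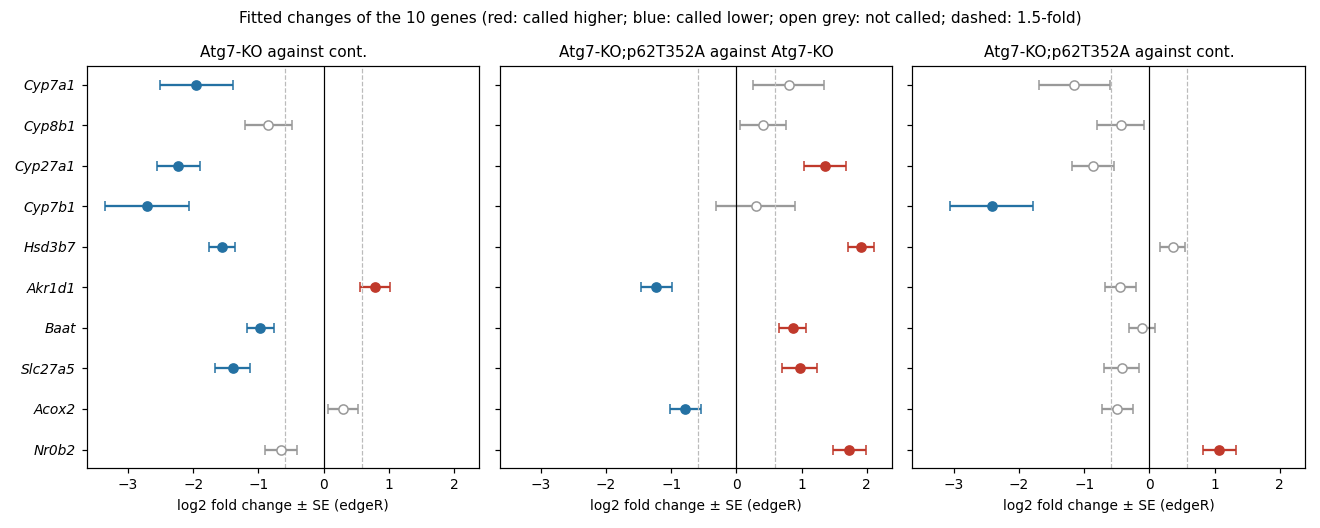
Fitted log2 fold changes with SE of the 10 genes in the 3 comparisons, on a common axis; filled red points were called higher, filled blue points lower, open points were not called, and dashed lines mark 1.5-fold. Hsd3b7, Cyp27a1, Slc27a5 and Baat lie left of 0 in the first panel and right of it in the second, and Akr1d1 does the reverse.

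Per kilobase of transcript, a scale on which genes can be set beside each other, the order of the genes was similar at its ends. Cyp27a1 and Hsd3b7 had the highest means in all genotypes. They stood at 584 ± 264 and 413 ± 74.5 CPM per kb (SD, n = 3) in the cont. mice, 125 ± 18.3 and 140 ± 8.12 in Atg7-KO, and 320 ± 26.2 and 529 ± 56.5 in Atg7-KO;p62T352A. Their ranges overlapped in the first 2 genotypes and not in the third. In every genotype the range of Slc27a5, at rank 3, overlapped that of the second gene. Cyp7a1 was last in each, at 37.3 ± 29.1, 9.65 ± 5.20 and 16.8 ± 5.62 CPM per kb, and its range overlapped that of the gene before it.

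The middle of the order shifted. Akr1d1, at rank 8 in cont. with 59.4 ± 19.1 CPM per kb, was at rank 4 in Atg7-KO with 103 ± 6.03, where its range touched neither that of Baat (82.2 ± 5.48), below it, nor that of Slc27a5 (121 ± 12.7), above it. Nr0b2 stood at rank 9 in cont. (59.4 ± 13.2 CPM per kb) and at rank 5 in Atg7-KO;p62T352A (125 ± 33.1), where it overlapped Baat (149 ± 13.9). In cont. the genes from Cyp8b1 to Nr0b2 overlapped their neighbours throughout.

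**Figure D4:**
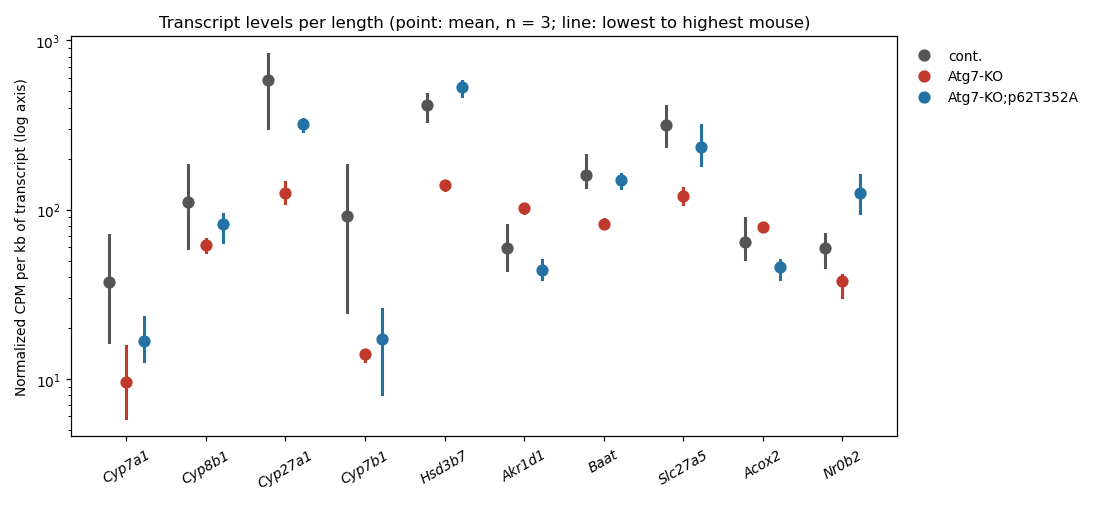
Normalized CPM per kilobase of transcript on a log axis for the 10 genes; points are the mean of 3 mice and lines run from the lowest to the highest mouse of each genotype. Akr1d1 is the gene whose Atg7-KO line lies wholly above both other lines.

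Of 11 other enzymes of bile acid synthesis 10 were tested, Ch25h having too few counts. In Atg7-KO 4 fell against cont. and none rose, beside 22.1% and 21.6% of all tested genes. Slc27a2, which activates sterol side chains, was 953, 1386 and 1157 CPM in cont., 386, 407 and 404 CPM in Atg7-KO and 1369, 1374 and 1589 CPM in Atg7-KO;p62T352A (-1.55, FDR 0.000322). Scp2, a peroxisomal thiolase and sterol carrier, was 2.83-fold lower (FDR 0.0185). The peroxisomal importer Abcd3 fell by 1.09 on the log2 scale (FDR 0.0146), and Cyp46a1, the cholesterol hydroxylase known from brain, by 4.55 (FDR 0.000445), from 2.06 to 10.7 CPM in cont. to 0.128 to 0.339 CPM. Slc27a2, Scp2 and Cyp46a1 rose in Atg7-KO;p62T352A against Atg7-KO (1.86, 1.36 and 3.66), beside 24.7% of all tested genes. No gene of the list was called there against cont., beside 11.6% of all. The median of the list was -0.45 and then 0.46. Cyp2c70, which makes the muricholic acids of rodents, was not called in any comparison, at 426 to 985 CPM in cont., 741 to 804 CPM in Atg7-KO and 346 to 663 CPM in Atg7-KO;p62T352A.

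Among 14 regulators of the pathway 13 were tested, and Fgf15, which the intestine makes, had no count in any mouse. In Atg7-KO 8 fell against cont. and none rose, beside 22.1% and 21.6% of all tested genes, and the median was -0.80. The bile acid receptor Nr1h4 (FXR) was 133, 271 and 219 CPM in cont., 56.7, 50.5 and 52.8 CPM in Atg7-KO and 214, 172 and 209 CPM in Atg7-KO;p62T352A. It fell by 1.96 on the log2 scale in Atg7-KO (FDR 0.000331) and rose by 1.90 in Atg7-KO;p62T352A (FDR 0.000339). The receptor Fgfr4, which receives the FGF15 signal, fell by 0.96 and then rose by 1.10. The nuclear receptor Nr1i3 (CAR) fell by 2.76 and rose by 1.94, and Mafg, a repressor that FXR induces, fell by 1.61 and rose by 1.62, with cont. mouse 1 inside the Atg7-KO range. Nr1h3, Rxra, Nr1i2 and Prox1 completed the genes that fell.

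Against Atg7-KO, 8 regulators were higher in Atg7-KO;p62T352A and 1 was lower, beside 24.7% and 26.2% of all tested genes, with a median of 0.73. The one that fell was Nr5a2 (LRH-1), an activator of Cyp7a1 and Cyp8b1, at 54.0, 38.1 and 34.3 CPM in cont., 29.7, 30.2 and 26.4 CPM in Atg7-KO and 17.1, 11.2 and 12.3 CPM in Atg7-KO;p62T352A. Its genotypes did not overlap, and its log2 fold change in Atg7-KO;p62T352A was -1.09 against Atg7-KO (FDR 0.00318) and -1.64 against cont. (FDR 0.00606). In the latter comparison Klb, the coreceptor of Fgfr4, and Prox1, a corepressor, were also lower (-1.14, FDR 0.0355, and -1.43, FDR 0.00937). Hnf4a, which activates many hepatocyte genes, was not called in Atg7-KO against cont. (-0.39, FDR 0.131) and was higher in Atg7-KO;p62T352A than in Atg7-KO (0.73, FDR 0.0118).

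By their median, markers of hepatocytes moved with the members in the 2 comparisons with Atg7-KO, where Akr1d1 and Acox2 had the opposite sign. Against cont., 7 of 9 measured markers were lower in Atg7-KO, beside 22.1% of all tested genes (median log2 fold change -1.26). In Atg7-KO;p62T352A 6 were higher than in Atg7-KO, beside 24.7% of all (median 1.60). Against cont. 1 was lower there and none higher, with a median of 0.34 beside -0.44 for the members. The summed level of the hepatocyte markers was 74770 to 148600 CPM in cont., 41650 to 44650 CPM in Atg7-KO and 115000 to 131000 CPM in Atg7-KO;p62T352A. The sum of 8 cholangiocyte markers was 34.9 to 52.4, 836 to 1030 and 182 to 267 CPM in the same order, that of 8 macrophage markers 234 to 304, 630 to 707 and 167 to 325 CPM, and that of 8 stellate cell markers 125 to 145, 663 to 895 and 168 to 302 CPM. The sums rest on few genes, since Alb made up 24670 to 27310 CPM of the hepatocyte sum and Spp1 771 to 967 CPM of the cholangiocyte sum in Atg7-KO. Over all tested genes 21.6% were higher in Atg7-KO than in cont. By list, 6 of 8 cholangiocyte markers were higher and 2 were not called (median log2 fold change 2.76). Among macrophage markers 5 were higher and 1, Timd4, lower (median 1.61), and 6 of 8 stellate markers were higher (1.26). Against Atg7-KO, the medians of these 3 lists in Atg7-KO;p62T352A were -1.94, -1.64 and -1.38. Sums of 6 endothelial and 6 lymphocyte markers were 259 to 270 and 60.9 to 68.3 CPM in Atg7-KO, beside 254 to 318 and 14.1 to 33.6 CPM in cont. and 135 to 165 and 23.6 to 27.6 CPM in Atg7-KO;p62T352A, and the medians in Atg7-KO against cont. were 0.28 and 1.39. Alb, Spp1 and Timd4 were named after their values were seen. The part of cell makeup in the results was not tested.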

How the data were processed

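Liver poly(A) RNA was sequenced as 75-bp single-end reads. Per the labels and the methods, the authors mapped reads to mm10 with STAR after Trim Galore and deposited RSEM expected counts per gene, with 1 column per mouse and no scaling. Versions, annotation and strand setting are not given in the sources used here. The counts were rounded to whole numbers. Mice of 1 genotype are biological replicates.

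The 3 genotypes were fitted together in R 4.3.3 with edgeR 4.0.16 (filterByExpr by genotype, TMM, glmQLFit, glmQLFTest), with p-values adjusted by Benjamini-Hochberg over 13922 genes. DESeq2 1.42.0, other scalings and filters, a block on the mouse number, an Xist term and each mouse left out were alternatives. The Xist term only set the mice numbered 1, which were low in Xist, apart from all others. It thus placed cont. mouse 2 with the mice high in Xist. SE and 95% intervals came from the quasi-likelihood F statistic. In simulated counts of 13708 genes for Atg7-KO against cont., every gene had the same spread between mice (dispersion 0.08). Of 196 genes changed 4-fold 95.4% were called, with 12 false calls. Genes that vary more between mice or change less were not simulated. Any 2 mice of a genotype differed beyond sampling noise, with a chi-square per degree of freedom of at least 14.0. Figures were drawn with Python 3.11.15 and matplotlib 3.10.9.

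The mouse numbers shared between genotypes come from the titles. The named genes were all members, the genes of the lists of other enzymes and regulators, single genes of the transporter, clock and marker lists, and the 3 genes most like Cyp7a1, Cyp7b1 and Nr0b2. Members and lists were chosen with earlier results of these data known. For 3 of 12 labelled mice no column was used here.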

Additional observations from a re-analysis of the deposited data

Results flagged for a closer look

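In a fit with an interaction of genotype and mouse number, chosen after the data were seen, the log2 difference of Cyp27a1 between Atg7-KO;p62T352A and cont. was higher by 1.42 in the mice numbered 1 than in the others (edgeR's quasi-likelihood test, FDR 0.0450). The mice numbered 1 are a single mouse per genotype, taken to vary like the others, and the value largely restates that cont. mouse 1 had the lowest Cyp27a1 of its genotype, as given above. Over all 13922 genes 1915 passed the same threshold in this comparison, beside 1 of the 10 members, so the result is not particular to them.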

How the results depend on the processing

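The numbers of members called were 7, 7 and 2 in Atg7-KO against cont., Atg7-KO;p62T352A against Atg7-KO and Atg7-KO;p62T352A against cont. These numbers were the same with FDR alone, with an Xist term, with the 20 most abundant genes left out, with a minimum of 10 counts per mouse or with no filter, and with upper-quartile scaling, and DESeq2 gave 9, 7 and 3. A test against 1.5-fold itself (glmTreat) gave 6, 4 and 0, being stricter by construction. Omitting 1 mouse gave 5 to 8, 5 to 7 and 0 to 3. A replicate block on the mouse number gave 7, 7 and 2. Mice with the same number deviated together only in part (mean correlation 0.223, -0.0303 and 0.247 for the numbers 1, 2 and 3), so the numbers were not taken as a pairing. Over all genes the calls in the third comparison were 1613, and 988 with the block, 2975 without the mice numbered 1 and 253 with glmTreat. In the first they were 6080 and 3855 with glmTreat, and in the second 7095 and 4718. DESeq2 called 6410, 7340 and 2231 of 13922 genes in the 3 comparisons. With 1 mouse left out the calls over all genes were 4587 to 7960, 5652 to 8142 and 435 to 3245, of 14103 to 14207 tested.

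Directions that turned belonged to differences that were not called. Baat against cont. in Atg7-KO;p62T352A was 0.058 without the mice numbered 1 and ran from -0.29 to 0.12 with single mice left out (0.12 without cont. mouse 1). Cyp8b1 there was 0.0056 and ran from -0.75 to 0.12 (0.12 without cont. mouse 1). Cyp7b1 against Atg7-KO was -0.082 and ran from -0.12 to 0.64 (-0.12 without Atg7-KO;p62T352A mouse 1). The cause was not tested. Upper-quartile normalization moved the median of all genes to -0.135 in the second comparison and turned no member's direction. The lowest count of a member in any mouse was 270.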

Other observations

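Of 11 bile acid and bile transporters 10 were tested, and in Atg7-KO against cont. 3 rose and 5 fell, against 21.6% and 22.1% of all tested genes. The largest rise was that of Abcc4, which exports bile acids across the basolateral membrane, at 3.90, 3.40 and 5.50 CPM in cont., 230, 224 and 232 CPM in Atg7-KO and 2.36, 2.52 and 4.31 CPM in Atg7-KO;p62T352A (log2 fold change 5.75, FDR 7.22e-06, and -6.21 against Atg7-KO, FDR 7.57e-06). The largest fall was that of the uptake carrier Slco1a1 (-5.48, FDR 0.00142), at 74.0 to 725 CPM in cont., 3.07 to 12.1 CPM in Atg7-KO and 88.9 to 338 CPM in Atg7-KO;p62T352A. Abcb11, the bile salt export pump, named after its values were seen, was 844, 1020.0 and 972 CPM in cont., 200.4, 203 and 155 CPM in Atg7-KO and 670, 666 and 688 CPM in Atg7-KO;p62T352A. It fell by 2.34 on the log2 scale (FDR 3.39e-05) and rose by 1.86 (FDR 9.7e-05). In Atg7-KO;p62T352A against cont. 1 transporter was higher and 3 were lower, against 6.25% and 5.34% of all tested genes.

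Over the 9 mice, which share 3 genotypes, the tested genes whose log2 CPM ran most like Cyp7a1 were Txnrd3, Zfp799 and Fgfr1op (Pearson's r 0.944, 0.933 and 0.932). For Cyp7b1 they were Naa60, Gm10319 and Sec24c (0.973, 0.971 and 0.971), and for Nr0b2 Pdf, G0s2 and Nelfcd (0.981, 0.978 and 0.974). These are the highest values among all tested genes and are given as a description, with no test.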
